A study of Mus musculus with 48 samples.

Results

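The 8 genes described here encode the enzymes that turn lanosterol into cholesterol: Cyp51, Tm7sf2, Msmo1, Nsdhl, Hsd17b7, Ebp, Sc5d and Dhcr7. They were taken as a named list, each through its probe set with 1 gene symbol and the highest mean over the 48 arrays, and they make up 8 of the 13542 genes tested. All 8 passed the filter on low values (a mean log2 value of at least 5.46), and each had 1 probe set. The study asked how the diet of mouse fathers relates to gene expression in the liver of their offspring, and whether Atf7, which encodes a stress-responsive transcription factor, matters for it. RNA of the median liver lobe of F1 mice aged 3 weeks, male or female, was hybridised to 48 Affymetrix gene arrays, 8 in each of 6 groups. The sires ate a control diet (CD) or a low protein diet (LPD) from 3 to 12 weeks of age. WT_CD and WT_LPD are wild-type mice whose sires ate the control or the low protein diet, ATF7+/-_CD and ATF7+/-_LPD are offspring labelled ATF7+/-, and ATF7+/+_CD and ATF7+/+_LPD are offspring labelled ATF7+/+. How ATF7+/+ offspring differ from wild-type offspring is not in the labels, which also do not give the sex, litter or sire of an animal. The design text calls the 8 arrays of a group biologically independent. Every p-value measures the spread between these offspring samples, taken as 1 estimate over the 6 groups. The diet was given to the sires, and without sire and litter labels the spread between sires or litters could not be measured.

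All values are log2 expression as deposited, and a difference of 1 on that scale is a doubling of signal. Array medians ranged from 5.89 to 6.12, and how many arrays there were sets the precision. WT_CD replicates 4 and 5 were nearly identical, as were ATF7+/+_CD replicates 7 and 8, and each such pair entered as its average. WT_CD and ATF7+/+_CD therefore had n = 7 and the remaining groups n = 8. By probe sets that the annotation does not list, the arrays fell into a set A, holding 3 arrays of every group, and a set B, holding 5. The labels name no such batch, and medians or values within each set are given for each comparison. An Atf7 probe set (the lower of the 2 by mean level) ranged from 7.19 to 8.0 in ATF7+/-_CD, below WT_CD (8.32 to 8.70) and ATF7+/+_CD (8.45 to 9.13). In the low-protein groups it ranged from 6.98 to 8.06 in ATF7+/-_LPD, from 7.84 to 8.63 in WT_LPD and from 8.40 to 8.87 in ATF7+/+_LPD. With control-diet sires it was -0.87 in ATF7+/- against wild-type (adjusted p = 2.98e-05, limma). The other Atf7 probe set, at -0.26, did not pass there (adjusted p = 0.0956, limma). With low-protein sires neither passed against wild-type, the lower one at -0.59 (adjusted p = 0.426, limma). In ATF7+/- against ATF7+/+ the lower one passed with low-protein sires, at -0.89 (adjusted p = 0.000152, limma). It also passed there with control-diet sires (adjusted p = 1.83e-05, limma). The other probe set did not pass against ATF7+/+ (adjusted p = 0.0788 with control-diet and 0.301 with low-protein sires, limma). Its values are from the fit of all genes, which holds 1 probe set per gene. Those of the lower probe set are from a separate fit that includes it. All 5 hepatocyte markers (Alb, Apoa1, Ttr, Tat and Cps1) passed the filter, and none differed by sire diet in any label with limma.

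Lanosterol is the first sterol of cholesterol synthesis, and it becomes cholesterol by removal of methyl groups and by moving or reducing double bonds, on the membrane of the endoplasmic reticulum. The liver is a main site of this synthesis. When membrane sterols are low, the transcription factor SREBP2 is released from that membrane and raises transcription of the genes of the whole pathway, at promoters that also bind the general factors NF-Y and Sp1.

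The promoters of the genes that rose most in wild-type offspring are shown for the NF-Y motif that they share. Each line gives the 250 bases before a RefSeq start site on mouse assembly GRCm38.p6, 5′ to 3′ on the strand of the gene, with the NF-Y motif CCAAT in capitals; where it lies on the other strand it reads ATTGG. Cyp51 is at chr5:4104698-4104947 (minus strand), Msmo1 at chr8:64733579-64733828 (minus), Nsdhl at chrX:72918271-72918520 (plus), Hsd17b7 at chr1:169969206-169969455 (minus) and Dhcr7, the last of 3 listed start sites, at chr7:143829964-143830213 (plus).
Cyp51: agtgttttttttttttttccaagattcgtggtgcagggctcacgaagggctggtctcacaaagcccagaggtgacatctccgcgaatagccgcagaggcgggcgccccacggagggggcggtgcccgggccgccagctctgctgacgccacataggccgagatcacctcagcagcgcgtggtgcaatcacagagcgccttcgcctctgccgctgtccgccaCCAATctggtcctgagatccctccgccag
Msmo1: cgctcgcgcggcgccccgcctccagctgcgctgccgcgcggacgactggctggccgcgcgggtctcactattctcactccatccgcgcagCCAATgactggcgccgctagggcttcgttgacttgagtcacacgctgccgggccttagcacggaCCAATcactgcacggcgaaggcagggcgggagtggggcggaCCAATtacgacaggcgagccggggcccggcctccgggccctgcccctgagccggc
Nsdhl: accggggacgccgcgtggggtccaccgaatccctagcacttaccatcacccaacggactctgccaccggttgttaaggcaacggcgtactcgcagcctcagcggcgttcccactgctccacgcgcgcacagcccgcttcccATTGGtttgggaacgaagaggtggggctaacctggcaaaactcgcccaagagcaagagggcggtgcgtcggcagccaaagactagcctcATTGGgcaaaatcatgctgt
Hsd17b7: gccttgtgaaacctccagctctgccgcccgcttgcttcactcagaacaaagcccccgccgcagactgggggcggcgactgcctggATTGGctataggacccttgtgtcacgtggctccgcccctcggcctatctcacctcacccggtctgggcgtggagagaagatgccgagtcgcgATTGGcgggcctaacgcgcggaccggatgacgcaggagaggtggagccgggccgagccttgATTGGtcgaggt
Dhcr7: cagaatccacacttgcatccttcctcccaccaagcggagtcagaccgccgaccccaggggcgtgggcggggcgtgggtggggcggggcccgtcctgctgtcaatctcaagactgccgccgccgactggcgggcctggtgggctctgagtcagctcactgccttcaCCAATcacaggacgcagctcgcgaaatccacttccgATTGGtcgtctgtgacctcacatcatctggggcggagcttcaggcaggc

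Motifs were searched on both strands of each 300-base window, which also takes in the 50 bases after the start site, and all 8 genes had at least 1 window. CCAAT was present for 8 of 8 enzymes, against 41.1% of all 27025 genes with a window. Nsdhl had 4 matches, Msmo1 and Hsd17b7 had 3 each, and Ebp and the printed Dhcr7 window had 2 each. Of the 4 Nsdhl matches 2 lay after the start site, outside the printed bases. The Sp1 motif GGGCGG was present for 8 of 8 enzymes as well, against 38.2% of genes. A strict sterol regulatory element, TCACNCCAC, was found in the windows of 0 of 8 enzymes, against 1.44% of genes. The variant TCACCTCA, looked for only after the windows had been read, occurred in Cyp51 (at -88 from the start) and Hsd17b7 (at -117), against 1.37% of genes. The palindromic element TGACGTCA, of the kind that factors of the ATF family bind, occurred in 0 of 8, against 2.03%, and the E-box CACGTG in 3 of 8 (Hsd17b7, Sc5d and the second Dhcr7 window), against 8.09%. No motif searched contains another, and no matches in the windows of the 8 enzymes overlapped. A match is a description of the letters, and a missing match says only that those letters are not in the window.

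In wild-type offspring all 8 enzymes were higher when the sire had eaten the low protein diet. Cyp51 and Nsdhl rose the most, 3.93-fold and 3.67-fold, and Ebp the least, 1.30-fold. Every one of the 8 passed the test, whereas 3.6% of all genes tested passed, 2.78% as higher and 0.812% as lower (limma over all genes, two-sided, Benjamini-Hochberg adjusted p under 0.05). The median log2 difference was 1.25 over the 8 enzymes and 0.0036 over all genes tested. For 4 of the 8 the groups WT_CD and WT_LPD did not overlap, against 0.561% of all genes. In bulk tissue fewer cells of a type and less RNA per cell cannot be told apart.

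**Figure D1:**
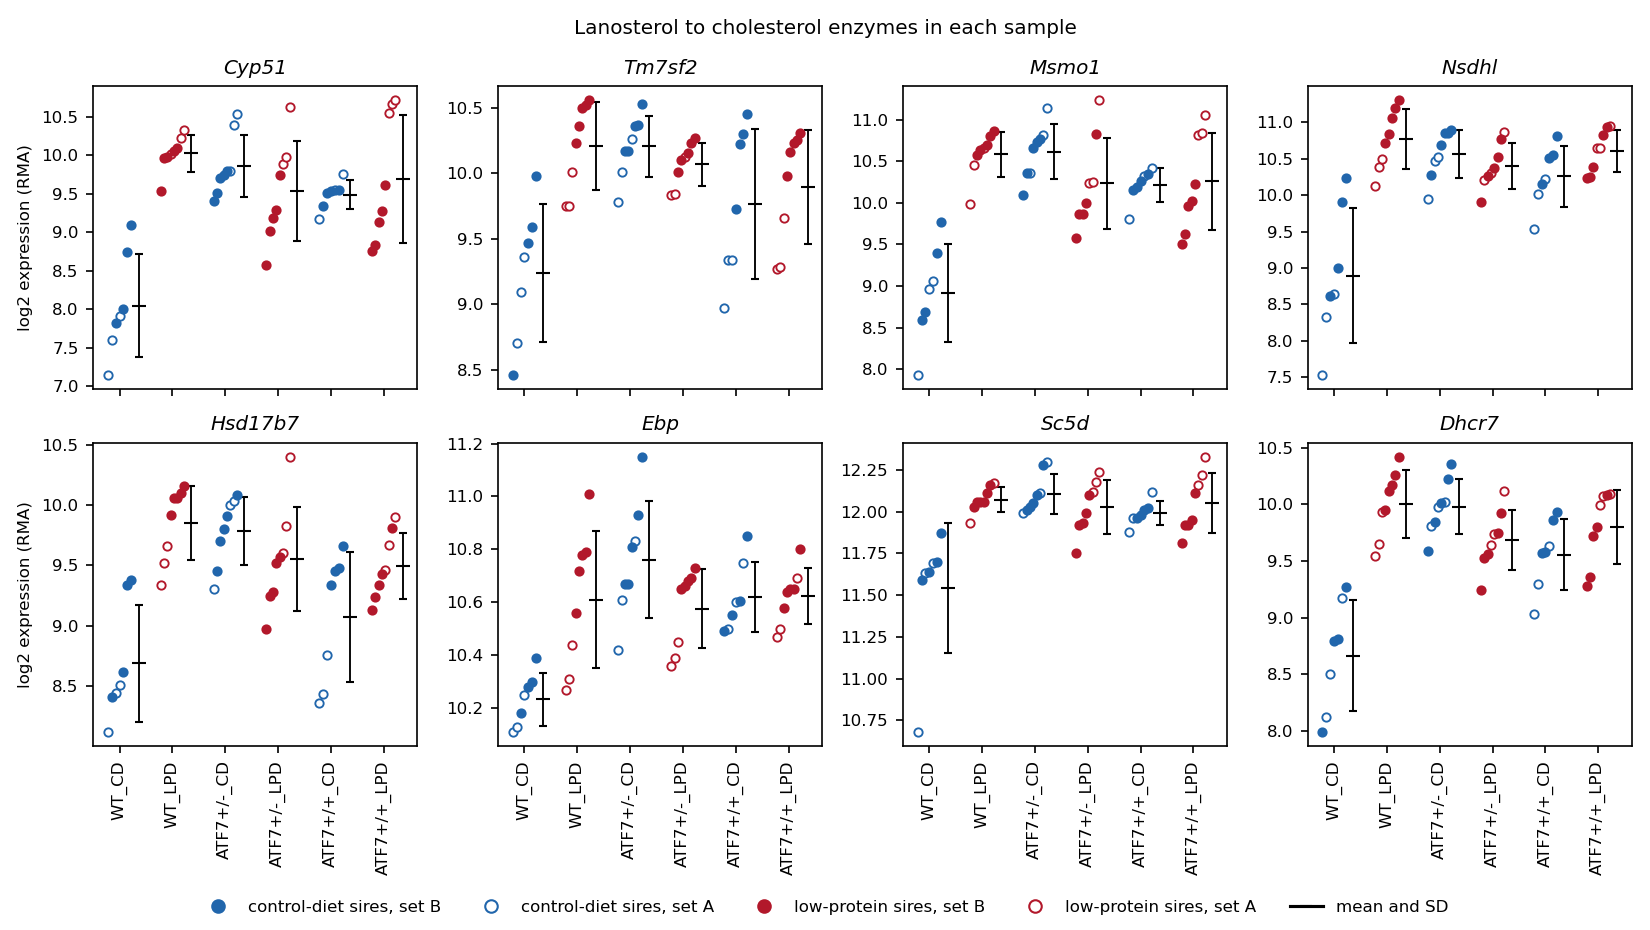
Log2 expression (vertical axes) of each of the 8 enzymes in every sample, sorted by value within the 6 groups. Blue points are offspring of control-diet sires and red points those of low-protein sires, open points are array set A and filled points set B, and bars give the mean and SD. WT_CD had the lowest mean of the 6 groups for 8 of 8 enzymes; Cyp51 ranged from 7.15 to 9.10 there and from 9.53 to 10.33 in WT_LPD.

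Cyp51, the cytochrome P450 that starts the route by removing a methyl group of lanosterol, ranged in WT_CD from 7.15 to 9.10 (median 7.91, n = 7). In WT_LPD it ranged from 9.53 to 10.33 (median 10.04, n = 8). The groups did not overlap, and the WT_CD samples spread more widely (SD 0.67 against 0.24). The difference was 1.98 ± 0.27 (SE), with a limma adjusted p of 5.03e-06. It was 2.64 within array set A and 1.504 within set B, and this difference between the sets passed its own test (1.13 ± 0.33, adjusted p = 0.0271, limma, in which 9.45% of all genes passed). Tm7sf2, which reduces the double bond that this step leaves, ranged from 8.46 to 9.98 in WT_CD (median 9.36) and from 9.75 to 10.56 in WT_LPD (median 10.30). The highest WT_CD sample, replicate 1, lay above the lowest of WT_LPD, and the difference was 0.97 ± 0.20 (adjusted p = 0.0021, limma).

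The 3 enzymes that take off the next methyl groups act in turn as oxidase (Msmo1), decarboxylating dehydrogenase (Nsdhl) and ketone reductase (Hsd17b7). Msmo1 ranged from 7.93 to 9.77 in WT_CD (median 8.96) and from 9.99 to 10.86 in WT_LPD (median 10.65). The groups did not overlap and differed by 1.67 ± 0.22 (3.18-fold, adjusted p = 2.87e-06, limma), with 1.72 in array set A and 1.60 in set B. Nsdhl had the widest spread in WT_CD, from 7.53 to 10.24 (median 8.64, SD 0.93), and ranged from 10.13 to 11.31 in WT_LPD (median 10.78). Only the sample averaged from WT_CD replicates 4 and 5 reached into the range of WT_LPD, and the difference was 1.88 ± 0.24 (adjusted p = 1.22e-06, limma). Hsd17b7 ranged from 8.12 to 9.38 in WT_CD (median 8.51) and from 9.34 to 10.16 in WT_LPD (median 9.99). Its groups overlapped between 9.34 and 9.38, and it rose by 1.16 ± 0.20 (2.24-fold, adjusted p = 0.0002, limma).

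Ebp, which shifts a double bond within the sterol ring, had the narrowest range in WT_CD, 10.11 to 10.39 (median 10.25), and ranged from 10.27 to 11.01 in WT_LPD (median 10.64). The groups overlapped and the rise was small, 0.38 ± 0.09 (adjusted p = 0.0113, limma). Within array set A alone it was 0.18 and did not pass (adjusted p = 0.262), whereas within set B it was 0.48 (adjusted p = 0.0021). Sc5d, the desaturase that follows, ranged from 10.68 to 11.88 in WT_CD (median 11.64) and from 11.93 to 12.17 in WT_LPD (median 12.06). WT_CD replicate 8, at 10.68, lay far below the other WT_CD samples; without it the rise of 0.53 ± 0.10 (adjusted p = 0.0009) was 0.39 and still passed. In fits with only the 2 groups compared, Ebp (adjusted p = 0.0874) and Sc5d (adjusted p = 0.0648) did not pass with limma.

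Dhcr7, the reductase of the last step, ranged from 7.99 to 9.27 in WT_CD (median 8.79) and from 9.54 to 10.42 in WT_LPD (median 10.04). The groups did not overlap, and the rise of 1.34 ± 0.16 (2.53-fold) had the smallest adjusted p of the 8 enzymes, 5.79e-07 with limma, ranking 5 among all genes. Within WT_CD, replicate 8 was the lowest sample for 6 enzymes (all but Tm7sf2 and Dhcr7), and the sample averaged from replicates 4 and 5 was the highest for 6 (all but Tm7sf2 and Ebp). Averaged over the 8 enzymes, each centred on its mean over all samples, the WT_CD samples lay between -1.56 and -0.24 and the WT_LPD samples between -0.06 and 0.59. Leaving out any 1 of the 15 wild-type samples kept the count at 8 of 8.

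In ATF7+/- offspring no enzyme passed between the sire diets, and none of all genes did either (0% called; 178 genes had an unadjusted p under 0.05 with limma). All 8 differences were below 0 (median -0.21, against 0.0038 over all genes). The largest was that of Msmo1, at -0.38 (95% interval -0.82 to 0.05): it ranged from 10.10 to 11.14 in ATF7+/-_CD (median 10.70) and from 9.58 to 11.24 in ATF7+/-_LPD (median 10.12). Cyp51 differed by -0.32 (-0.85 to 0.21), with samples from 9.40 to 10.53 in ATF7+/-_CD and from 8.57 to 10.63 in ATF7+/-_LPD. The intervals were -0.61 to 0.03 for Dhcr7, -0.61 to 0.15 for Hsd17b7, -0.63 to 0.31 for Nsdhl and -0.52 to 0.25 for Tm7sf2. Sc5d had the interval -0.27 to 0.11 and Ebp -0.36 to -0.01, the only one of the 8 that left out 0, with an unadjusted p of 0.0404. The upper bound of each of these intervals was below the lower bound for the same gene in wild-type offspring. ATF7+/-_CD and ATF7+/-_LPD overlapped for 8 of 8 enzymes, whereas 0.00738% of all genes had no overlap.

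In ATF7+/+ offspring 0 of 8 enzymes and 1 of all genes (0.00738%) passed between the sire diets with limma, and 621 genes had an unadjusted p under 0.05. The 8 differences lay between 0.00 (Ebp, 95% interval -0.18 to 0.18) and 0.43 (Hsd17b7, 0.03 to 0.82), with a median of 0.17 against 0.0063 over all genes. Hsd17b7 ranged from 8.36 to 9.66 in ATF7+/+_CD (median 9.34) and from 9.13 to 9.90 in ATF7+/+_LPD (median 9.45). Cyp51 lay close together in ATF7+/+_CD, from 9.17 to 9.76 (SD 0.19), and far apart in ATF7+/+_LPD, from 8.76 to 10.72 (SD 0.83). Its difference was 0.20 (-0.35 to 0.76). The 2 groups overlapped for 8 of 8 enzymes, whereas 0.096% of all genes had no overlap.

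That spread in ATF7+/+ offspring followed the array sets. Within set A Cyp51 was 1.15 higher in ATF7+/+_LPD (3 samples from 10.55 to 10.72) than in ATF7+/+_CD (9.17 to 9.76), and it passed there (adjusted p = 0.0319, limma). Within set B the difference was -0.36, with 5 ATF7+/+_LPD samples from 8.76 to 9.61 and 4 ATF7+/+_CD samples from 9.34 to 9.55. Hsd17b7 showed the same pattern, with 1.16 within set A (adjusted p = 0.0231, limma) and -0.09 within set B. These were 2 of 8 enzymes, against 0.436% of all genes called within set A. The difference between the sets, a test added after the data were seen, passed for both: 1.51 ± 0.33 for Cyp51 and 1.25 ± 0.28 for Hsd17b7 (adjusted p = 0.0415 each, limma, with 0.236% of all genes called). The other 6 enzymes did not pass this test. The median diet difference over the 8 enzymes was 0.73 within set A in this label but -0.07 within set B. In wild-type offspring it was 1.13 and 1.30, and in ATF7+/- offspring -0.08 and -0.38. What sets A and B stand for is not in the labels, and their part in these results was not tested beyond these values.

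**Figure D2:**
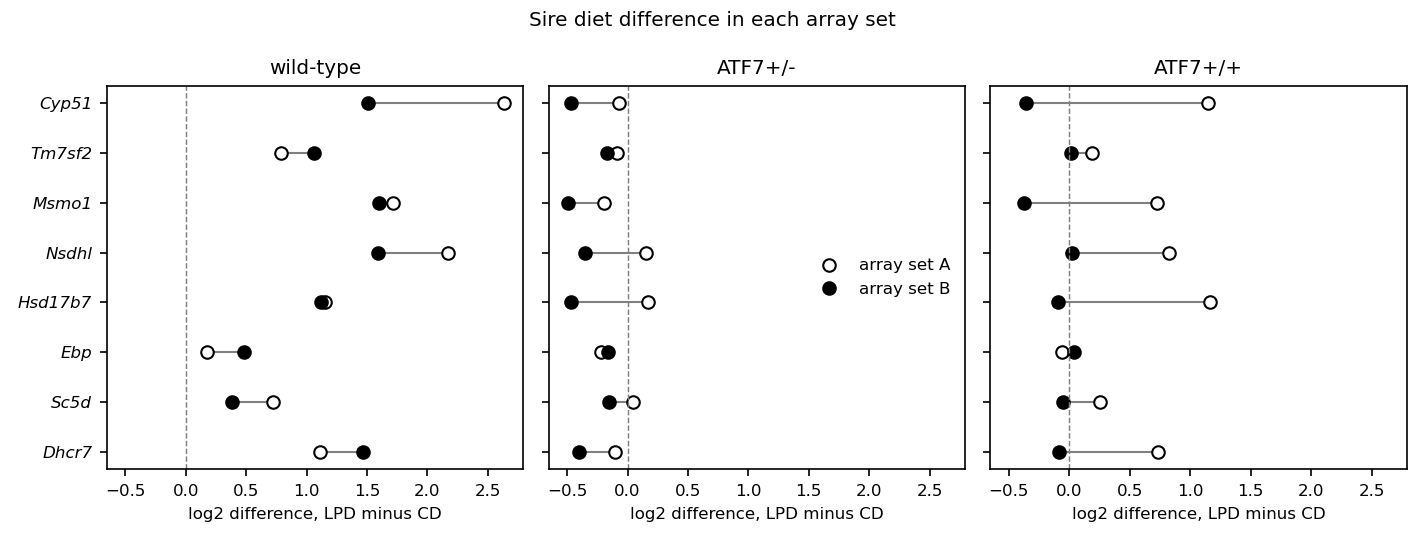
Difference in log2 expression between offspring of low-protein and control-diet sires (horizontal axis) for each enzyme, computed within array set A (open) and within array set B (filled), in the 3 genotype labels. In wild-type offspring all 16 points lie above 0, from 0.18 to 2.64, whereas in ATF7+/+ offspring Cyp51 lies at 1.15 for set A but at -0.36 for set B.

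The diet difference itself was compared between the labels with an interaction term. Between wild-type and ATF7+/- offspring it differed for 8 of 8 enzymes, whereas 0.635% of all genes passed, 0.569% as larger and 0.0665% as smaller in wild-type (limma). Cyp51 differed by 2.30 ± 0.38 (adjusted p = 0.0003), Msmo1 by 2.05 ± 0.31 (adjusted p = 8.39e-05), Nsdhl by 2.04 ± 0.34 (adjusted p = 0.0003) and Dhcr7 by 1.63 ± 0.23 (adjusted p = 2.38e-05). Hsd17b7 differed by 1.40 ± 0.27 (adjusted p = 0.0034), Sc5d by 0.61 ± 0.14 (adjusted p = 0.0223) and Ebp by 0.56 ± 0.13 (adjusted p = 0.0203). Tm7sf2 was nearest the threshold, at 1.11 ± 0.28 (adjusted p = 0.0396), and no longer passed without any 1 of 17 of the 31 samples: WT_CD replicates 2, 6, 7 and 8, WT_LPD 3, 4, 5 and 8, ATF7+/-_CD 2, 3, 4, 5 and 7, and ATF7+/-_LPD 1, 6, 7 and 8. The first 4 enzymes passed in array set A alone, where Tm7sf2, Hsd17b7, Ebp and Sc5d did not and 2.07% of all genes did; the medians were 1.10 within set A and 1.73 within set B. Ebp and Sc5d did not pass in the fit of only the groups compared (adjusted p = 0.0512 each), Ebp (0.0709) and Tm7sf2 (0.0901) not with median centring, and Tm7sf2 (0.0517) not without the filter.

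Between wild-type and ATF7+/+ offspring the interaction passed for Msmo1 alone (1.63 ± 0.32, adjusted p = 0.0426, limma), and for 0.0222% of all genes. Dhcr7 (1.10 ± 0.23, adjusted p = 0.0548), Cyp51 (1.77 ± 0.39, adjusted p = 0.0584) and Nsdhl (1.52 ± 0.34, adjusted p = 0.0661) lay just outside the threshold. The other 4 had 95% intervals above 0 and adjusted p-values from 0.272 (Sc5d) to 0.458 (Hsd17b7). With the array set as a block 5 enzymes passed (Msmo1, Cyp51, Nsdhl, Dhcr7 and Tm7sf2), with 0.377% of all genes called, and with a block for same-numbered samples of a label 4 did, with 0.354% called. The median over the enzymes was 0.97, with 0.54 within array set A and 1.38 within set B. Without any 1 of 18 of the 30 samples none passed: WT_CD replicates 2, 3, 6 and 8, WT_LPD 1, 3, 4, 6 and 7, ATF7+/+_CD 1, 4, 6 and the averaged 7 and 8, and ATF7+/+_LPD 4 to 8. Without any 1 of 10 others (WT_CD 1, 7 and the averaged 4 and 5, WT_LPD 2, ATF7+/+_CD 2, 3 and 5, and ATF7+/+_LPD 1 to 3) 2 to 4 passed. Between ATF7+/- and ATF7+/+ the diet difference passed for 0 of 8 enzymes and 0% of all genes (380 genes had an unadjusted p under 0.05), with a median of -0.47 over the enzymes (-0.76 within set A and -0.19 within set B).

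**Figure D3:**
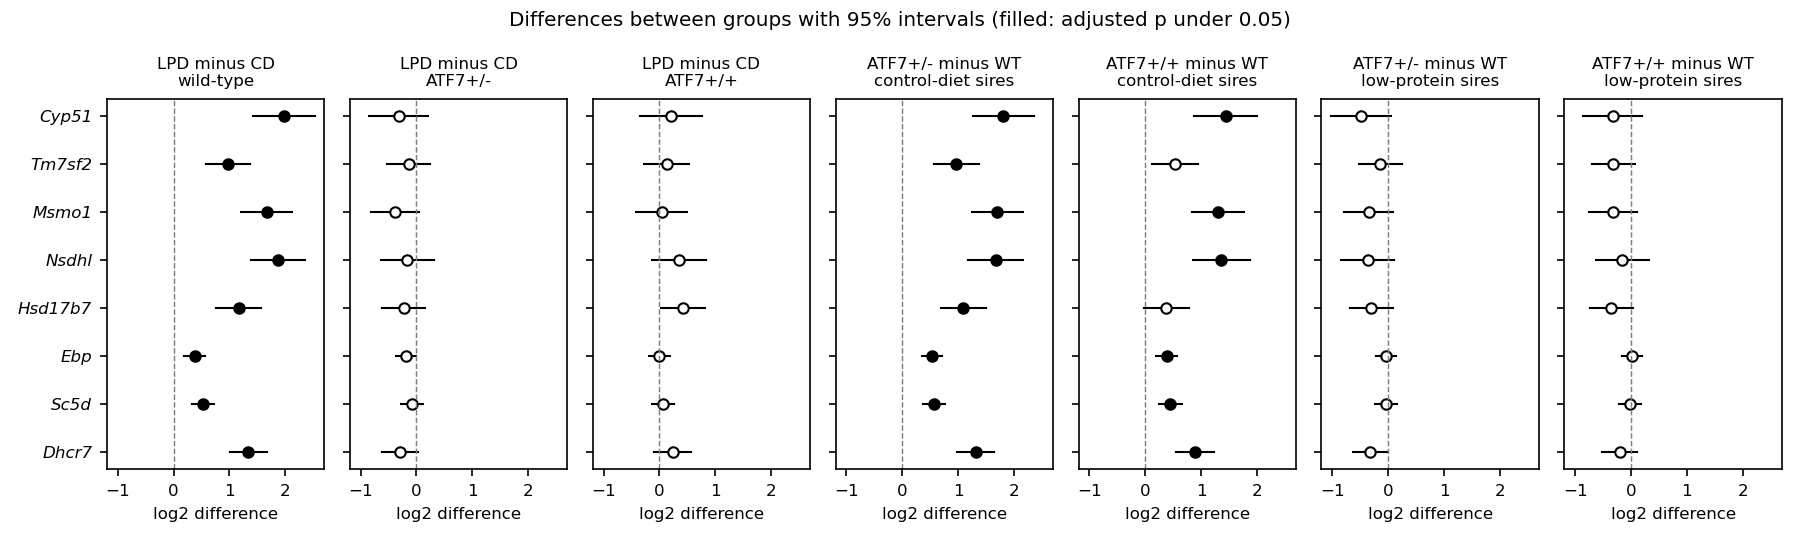
Log2 difference (horizontal axes) with its 95% interval for each of the 8 enzymes in 7 comparisons, 3 of sire diet within a label and 4 between labels within a sire diet; filled points passed at an adjusted p under 0.05 with limma. All 8 points are filled for sire diet in wild-type and for ATF7+/- against wild-type with control-diet sires, 6 for ATF7+/+ against wild-type with control-diet sires, and 0 in the other panels.

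Among offspring of control-diet sires, all 8 enzymes were higher in ATF7+/- than in wild-type mice, whereas 1.65% of all genes passed, 1.17% as higher and 0.487% as lower (limma). This comparison, the wild-type diet comparison and the interactions of wild-type with each other label share the WT_CD samples. So does ATF7+/+ against wild-type with control-diet sires, and these results are not independent of each other. Cyp51 was 1.81 ± 0.27 higher (adjusted p = 3.42e-05), Msmo1 1.70 ± 0.22 (adjusted p = 3.77e-06), Nsdhl 1.67 ± 0.24 (adjusted p = 1.62e-05) and Dhcr7 1.31 ± 0.16 (adjusted p = 1.37e-06). Hsd17b7 was 1.10 ± 0.20 higher, Tm7sf2 0.97 ± 0.20, Sc5d 0.57 ± 0.10 and Ebp 0.53 ± 0.09. For 5 enzymes (Cyp51, Msmo1, Dhcr7, Sc5d and Ebp) the groups did not overlap, against 0.347% of all genes. The median over the enzymes was 1.38 within array set A and 1.08 within set B. Cyp51 differed by 2.69 and 1.212 and Nsdhl by 2.15 and 1.28. The count was 8 in every fit that left out 1 sample, and 7 with only the 2 groups compared, where Sc5d did not pass (adjusted p = 0.0946, limma).

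In ATF7+/+ offspring of control-diet sires 6 of 8 enzymes were higher than in wild-type, against 0.347% of all genes (0.288% higher and 0.0591% lower). These were Cyp51 (1.44 ± 0.28, adjusted p = 0.0106), Nsdhl (1.37 ± 0.25, adjusted p = 0.0057), Msmo1 (1.30 ± 0.23, adjusted p = 0.0043), Dhcr7 (0.89 ± 0.17, adjusted p = 0.0081), Sc5d (0.45 ± 0.10, adjusted p = 0.0371) and Ebp (0.39 ± 0.09, adjusted p = 0.0486), all with limma. Tm7sf2 (0.53, 95% interval 0.12 to 0.94) and Hsd17b7 (0.38, -0.03 to 0.79) did not pass. For 4 enzymes (Cyp51, Msmo1, Sc5d and Ebp) the groups did not overlap, against 0.133% of all genes. Without WT_CD replicate 8 the count was 3, since Cyp51 (adjusted p = 0.0550), Sc5d and Ebp no longer passed. It was 0 in the fit of only these 2 groups (0.00738% of all genes called) and 0 in array set B alone (0.0443% called), where the differences of the 6 ran from 0.29 to 1.13. The median over the 8 was 0.69 within set A and 0.91 within set B. Sc5d also no longer passed without ATF7+/+_CD replicates 1, 3, 4, 6 or the averaged 7 and 8, and Ebp without any 1 of 11 of the 14 samples (all but WT_CD 3, the averaged WT_CD 4 and 5, and ATF7+/+_CD 5).

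Among offspring of low-protein sires the labels did not part the enzymes. Neither ATF7+/- nor ATF7+/+ differed from wild-type for any of the 8 (0 of 8 and 0% of all genes in each; 377 and 1130 genes had an unadjusted p under 0.05 with limma). The medians over the enzymes were -0.31 and -0.26, and their sign turned with the array set. Within set A the medians were 0.13 and 0.28, with 7 of 8 enzymes above 0 in each comparison. Within set B they were -0.62 and -0.52, with 0 of 8 above 0 in each. Cyp51, for one, was 0.45 higher in ATF7+/+ than in wild-type within set A and differed by -0.80 within set B, and neither passed. Groups overlapped for 8 of 8 enzymes in both comparisons, whereas 0.0665% and 0.103% of all genes had no overlap. ATF7+/- and ATF7+/+ offspring also had 0 of 8 enzymes and 0% of all genes past the threshold, with either sire diet (914 and 908 genes at an unadjusted p under 0.05). Here too no enzyme was free of overlap, against 0.0443% of all genes with control-diet and 0.0148% with low-protein sires. With control-diet sires their median difference was 0.39 (0.60 within set A, 0.22 within set B), and with low-protein sires -0.04 (-0.19 and -0.02). Within array set A alone, where 9.32% of all genes passed, 3 enzymes were higher in ATF7+/-_CD than in ATF7+/+_CD: Hsd17b7 by 1.26 (adjusted p = 0.0022), Tm7sf2 by 0.80 (adjusted p = 0.0070) and Cyp51 by 0.75 (adjusted p = 0.0387, limma).

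The order of the group means was headed by WT_LPD for 5 enzymes (Cyp51, Tm7sf2, Nsdhl, Hsd17b7 and Dhcr7) and by ATF7+/-_CD for 3 (Msmo1, Ebp and Sc5d). ATF7+/+_CD was second lowest for 7, and WT_CD was lowest for all 8. For Cyp51 the means ran from 10.02 (WT_LPD) through 9.86 (ATF7+/-_CD), 9.69 (ATF7+/+_LPD), 9.54 (ATF7+/-_LPD) and 9.49 (ATF7+/+_CD) to 8.05 (WT_CD). For Dhcr7 they ran from 10.01 (WT_LPD) through 9.98 (ATF7+/-_CD), 9.80 (ATF7+/+_LPD), 9.69 (ATF7+/-_LPD) and 9.56 (ATF7+/+_CD) to 8.66 (WT_CD). The 5 groups other than WT_CD were set against each other in 6 comparisons, and no enzyme passed in any of them with limma. Neighbours in these orders above WT_CD differed by less than the larger of their SDs, for all 8 enzymes.

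The enzymes also varied together from animal to animal. Across the 46 samples the 28 pairs of enzymes had correlations from 0.40 to 0.94 (median 0.76). After the group means were taken out, so that only differences between samples of a group remained, they ran from -0.21 to 0.85 (median 0.54). These are descriptions over samples that share 2 array sets, with no test. The pair Cyp51 and Msmo1 was the highest in both (0.94 and 0.85). Tm7sf2, whose step lies between theirs, had r = 0.41 with Cyp51 and 0.48 with Msmo1 across samples. Within groups these were -0.16 and -0.05. Tm7sf2 and Ebp stood apart: against the mean of the other 7 enzymes within groups, Tm7sf2 had r = 0.23 and Ebp r = 0.25, while Nsdhl had 0.86 and Hsd17b7 0.85. Tm7sf2 and Ebp were also higher in array set B than in set A (by 0.53 and 0.20, adjusted p = 4.26e-07 and 7.24e-05), as was Nsdhl (0.43, adjusted p = 0.0028), while Cyp51 was lower (-0.45, adjusted p = 0.0060, limma; 68% of all genes differed between the sets).

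**Figure D4:**
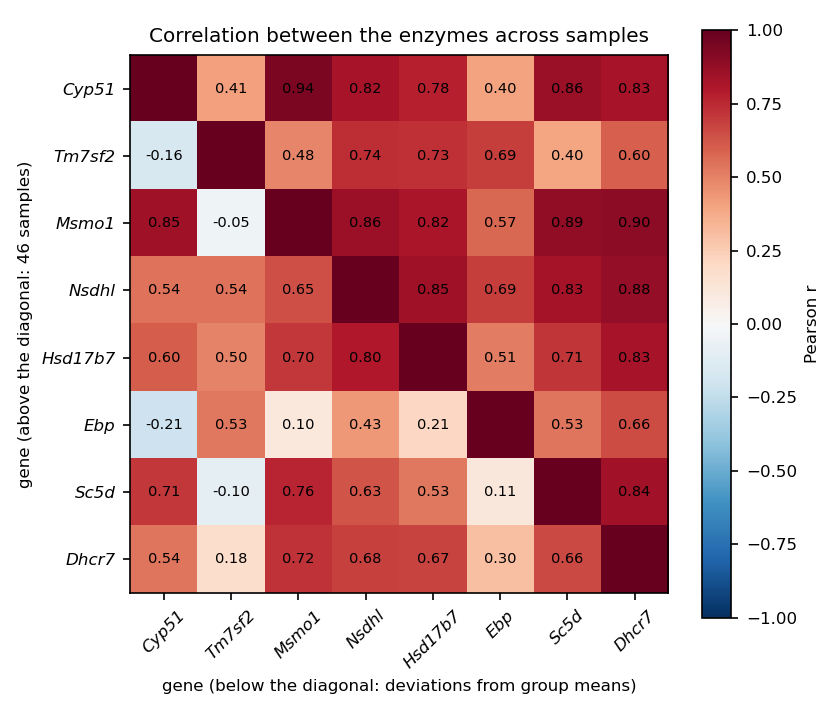
Pearson correlation between each pair of the 8 enzymes over 46 samples (above the diagonal) and over deviations from the group means (below it), with colour from blue (-1) to red (1) and the diagonal at 1 by definition. Within groups Cyp51 and Msmo1 reach 0.85, whereas Cyp51 and Ebp are at -0.21.

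Outside the list, the genes most like the mean of the 8 enzymes over the 46 samples were Fdps (r = 0.97), Sqle (0.95), Rdh11 (0.95), Idi1 (0.90) and Erg28 (0.89), followed by Pmvk, Hmgcs1, Fdft1, Lss and, with 0.87, Mvd. After the group means were taken out, Fdps (0.93), Sqle (0.85), Rdh11 (0.83), Lss (0.83) and Mvd (0.82) led, followed by Idh1, Idi1, Erg28, Stard4 and, with 0.76, Fdft1. Apart from Rdh11, Idh1, Stard4 and Erg28, these genes encode enzymes of the earlier route from acetyl units to lanosterol.

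That earlier route was described from its own list. Of 11 listed genes 9 were tested, and 9 of 9 were higher in WT_LPD than in WT_CD, with a median of 1.53. Sqle, which makes squalene epoxide, rose by 2.21 ± 0.26 (adjusted p = 4.44e-07), Pmvk by 1.33 ± 0.16 (adjusted p = 5.79e-07), Hmgcs1, the synthase that opens the route, by 1.73 ± 0.22 (adjusted p = 1.22e-06) and Fdps by 1.64 ± 0.22 (adjusted p = 1.91e-06, limma). The median of the 9 was -0.34 in ATF7+/- and 0.22 in ATF7+/+, with 0 of 9 past the threshold in each. Their interaction between wild-type and ATF7+/- passed for 9 of 9, with a median of 1.90.

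Of the other late sterol genes tested, Erg28, a scaffold of the enzymes that remove the methyl groups, rose by 0.67 ± 0.11 in wild-type offspring (adjusted p = 6.3e-05), and Ebpl, a relative of Ebp, by 0.32 ± 0.10 (adjusted p = 0.0468, limma). Lbr, a second reductase for the step of Tm7sf2, differed by 0.41 ± 0.15 and did not pass (adjusted p = 0.119). Among 4 tested genes that hand electrons or bind to these enzymes, Cyb5r3 rose by 0.46 ± 0.10 (adjusted p = 0.0055), and Cyb5a, Cyb5b and Pgrmc1 did not pass.

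Of 7 tested genes of the SREBP system 4 rose in wild-type offspring with limma. Srebf2, which encodes SREBP2, rose by 0.50 ± 0.09 (adjusted p = 0.0011), Stard4, a sterol carrier, by 0.63 ± 0.14 (adjusted p = 0.0044), Scap, the escort of SREBP, by 0.45 ± 0.11 (adjusted p = 0.0103), and Insig1, which retains SREBP in the endoplasmic reticulum, by 0.84 ± 0.22 (adjusted p = 0.0220). Srebf1 (-0.11), Mbtps1 (0.08) and Insig2 (0.42) did not pass. Srebf1 was at 0.55 within array set A but at -0.57 within set B, and Insig2 at 0.74 and 0.21. The interaction between wild-type and ATF7+/- passed for Srebf2 (0.73 ± 0.13, adjusted p = 0.0011) and Scap (0.62 ± 0.15, adjusted p = 0.0356), 2 of the 7. Of the targets of LXR, the receptor that senses oxysterols, 0 of 6 passed in wild-type offspring (median -0.10). Of the enzymes that use cholesterol for bile acids and oxysterols, 0 of 4 passed. Cyp8b1, one of them, differed by 1.17 ± 0.36 (adjusted p = 0.0598, limma), at -0.79 within array set A but 2.50 within set B.

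**Figure D5:**
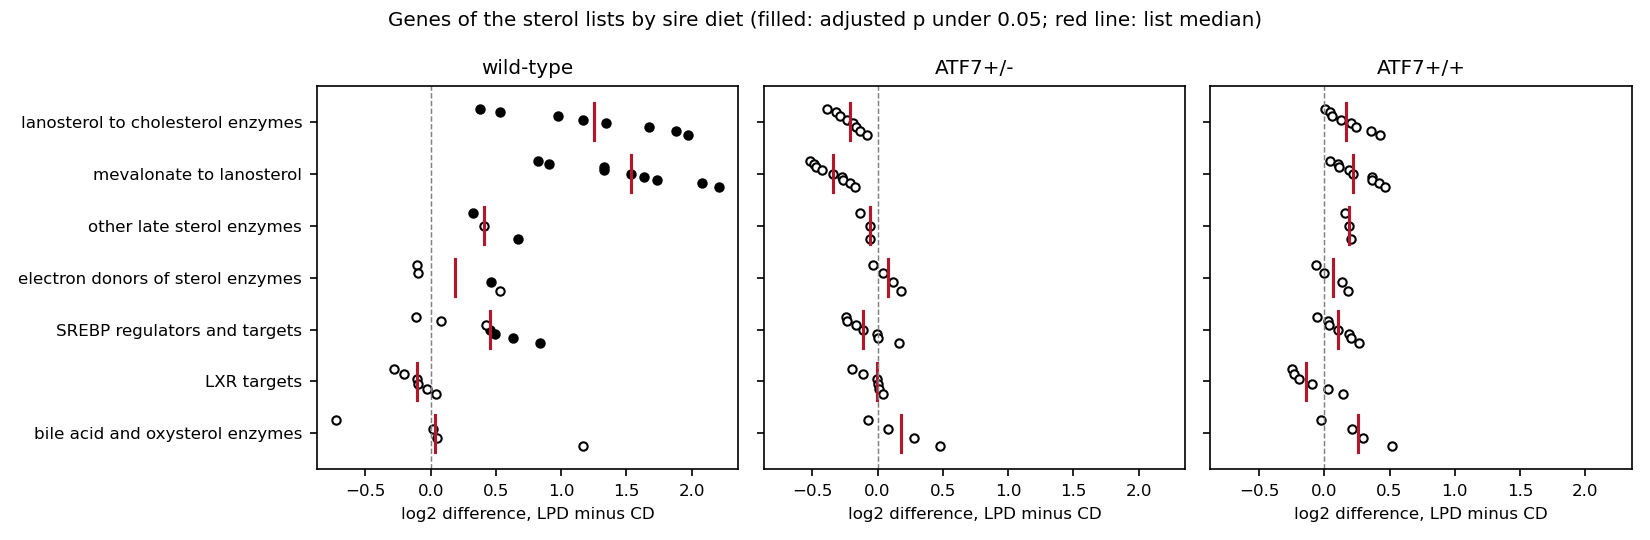
Log2 difference between offspring of low-protein and control-diet sires (horizontal axes) for every tested gene of 7 sterol lists in the 3 genotype labels; filled points passed at an adjusted p under 0.05 with limma, and red lines mark list medians. In wild-type offspring all 8 lanosterol to cholesterol enzymes and all 9 genes of the earlier route are filled, with medians of 1.25 and 1.53, while 0 genes of these lists are filled in ATF7+/- and ATF7+/+.

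Markers of other cells moved in the same comparison. Of 6 stellate cell markers 3 rose in wild-type offspring: Acta2 by 0.67 ± 0.17 (adjusted p = 0.0134), Lrat by 0.53 ± 0.15 (adjusted p = 0.0352) and Reln by 0.42 ± 0.12 (adjusted p = 0.0368, limma), with a list median of 0.34. The mean of the 6, each centred over all samples, ran from -0.57 to -0.05 in WT_CD and from -0.07 to 0.28 in WT_LPD. For the other groups it ran from -0.11 to 0.30 (ATF7+/-_CD), from -0.13 to 0.18 (ATF7+/-_LPD), from -0.44 to 0.26 (ATF7+/+_CD) and from -0.14 to 0.16 (ATF7+/+_LPD). Cdh5 rose by 0.34 ± 0.08 as 1 of 5 endothelial markers (adjusted p = 0.0105), and Alas2 by 0.84 ± 0.22 as 1 of 2 tested erythroid markers (adjusted p = 0.0196, limma). The endothelial mean ran from -0.32 to 0.26 in WT_CD and from -0.07 to 0.25 in WT_LPD, and the erythroid mean from -0.97 to 1.25 and from -0.17 to 0.91. None of the 5 hepatocyte, 6 Kupffer cell, 3 tested cholangiocyte and 4 tested granulocyte markers passed. In ATF7+/- against wild-type offspring of control-diet sires 1 of 6 stellate (median 0.31), 1 of 5 endothelial (median 0.17) and 0 of 2 erythroid markers (median 0.65) rose. When the diet difference was compared between wild-type and ATF7+/-, 1 of 6 stellate markers passed, Acta2 (0.93 ± 0.23, adjusted p = 0.0396, limma), with a list median of 0.40; 0 of 5 endothelial and 0 of 2 erythroid markers passed (medians 0.22 and 0.90). Log2 array values have no zero, so no marker can be called absent. The part of these cell types in the result was not tested.

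Of 13 tested clock genes, whose levels follow the time of day, Tef fell by 0.77 in wild-type offspring (adjusted p = 0.0468, limma), and the list median was -0.34 (-0.71 within array set A, -0.03 within set B). Of the 8 enzymes 7 passed as higher within set A (all but Ebp) and 8 within set B, with medians of 1.13 and 1.30. The share of all genes that passed within each set alone is not given here for this comparison. The mean of the clock genes, each centred over all samples, ran from -0.05 to 0.66 in WT_CD and from -0.53 to 0.60 in WT_LPD. Every gene enters this mean with the same sign, so opposite moves within the list offset each other. The mean and the list median therefore do not measure the time of day. The part of the clock in the result was not tested. By the mean of 3 Y-linked genes 32 samples were high (7.36 to 8.55) and 14 low (3.74 to 4.19), with 5 high samples each in WT_CD and WT_LPD. None of the 8 enzymes, of which Nsdhl and Ebp lie on the X chromosome, differed between the high and the low samples (0 of 8, against 0.273% of all genes, limma; Cyp51 and Msmo1 had unadjusted p-values of 0.0381 and 0.0410).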

How the data were processed

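The deposited values are log2 expression; per the submitters' processing notes, RMA and Affymetrix Expression Console were used by the authors. Neither the version nor which arrays were normalized with each other is given in the sources used here. The table held 35556 probe sets by 48 arrays and was used as deposited. Probe sets with 1 gene symbol in the platform annotation and a mean at or above the 40th percentile (5.46) were kept, and the probe set with the highest mean stood for a gene. For each pair of arrays of a group, the spread of its difference over the 5% of genes that vary most was divided by that over the 50% that vary least; pairs with a ratio under 1.5 (1.31 and 1.39, against 2.21 to 5.11 for the others) were averaged, which left 46 samples. Array sets were the 2 sides of the widest gap on the first principal component (48.6% of the variance) of 5591 probe sets with no listed gene.

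Means of the 6 groups were fitted with limma 3.58.1 in R 4.3.3, with 12 contrasts, two-sided tests, and Benjamini-Hochberg adjustment over 13542 genes within each contrast. Intervals are 95% intervals from that fit, and the script was tested on simulated data. All 8 members are named in every comparison, up to 4 genes with the smallest p of any other list with a call, the 10 genes most like the members, and Atf7; other names, and the test of set A against set B, were added after values were seen. The members and lists were chosen with earlier results of these data known. Same-numbered samples of the 2 diets correlated over all genes at r = 0.18 to 0.74 in ATF7+/- and 0.30 to 0.67 in ATF7+/+, where each pair lies in 1 array set. In wild-type r was 0.07 to 0.50 for pairs within 1 array set and -0.47 to -0.22 for pairs across the sets. No values for samples of different numbers are given here. These correlations therefore cannot show whether the replicate numbers pair the samples, and the block is an alternative. Promoters came from RefSeq (GRCm38.p6). Listed genes without a probe set of their own symbol alone were not analysed here.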

Additional observations from a re-analysis of the deposited data

Results flagged for a closer look

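In 4 of 48 combinations of an enzyme and a group, 1 sample lay apart from the rest by Dixon's criterion, where chance gives about 1 in 20 groups. WT_LPD replicate 5 had Cyp51 at 9.53, the lowest of its group. WT_LPD replicate 2 had Msmo1 at 9.99, the lowest of its group. ATF7+/+_CD replicate 3 had Msmo1 at 9.81, the lowest of its group. WT_CD replicate 8 had Sc5d at 10.68, against 11.59 for the next sample.

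The diet difference was larger in wild-type than in ATF7+/- offspring for all 8 enzymes by the interaction test: 2.30 for Cyp51, 2.05 for Msmo1, 2.04 for Nsdhl, 1.63 for Dhcr7, 1.40 for Hsd17b7, 1.11 for Tm7sf2, 0.61 for Sc5d and 0.56 for Ebp. It was larger in wild-type than in ATF7+/+ offspring for Msmo1, by 1.63. Between array sets A and B the diet difference differed for Cyp51 in wild-type (1.13) and for Cyp51 (1.51) and Hsd17b7 (1.25) in ATF7+/+ offspring.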

How the results depend on the processing

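Over 31 alternative settings the count of enzymes past the threshold stayed at 6 to 8 for sire diet in wild-type and at 7 to 8 for ATF7+/- against wild-type with control-diet sires, and their median differences at 1.13 to 1.36 and 1.08 to 1.38. The interaction of wild-type with ATF7+/- kept 7 to 8 when 1 sample was left out, 7 without the filter, 6 with median centring and with only the groups compared, and 4 in array set A alone. The count for ATF7+/+ against wild-type with control-diet sires was 6; it was 3 to 6 with 1 sample left out, 0 with only the groups compared and 0 in array set B alone. The interaction of wild-type with ATF7+/+ (1 enzyme) gave 0 to 4 with 1 sample left out. It gave 0 with no filter and with only the groups compared, 2 with quantile normalization, in array set A alone and with all 48 arrays as samples, and 3 with median centring. It gave 4 with a filter at the 60th percentile, array weights, the Y-linked covariate and array set B alone, and 5 with the array-set block, with or without that covariate. Of these settings, the share of all genes called is given here only for the array-set block without that covariate (0.377%). For the others, a gain in enzymes cannot be set apart from a gain in calls over all genes. With the replicate block the count was 2 over all groups and 4 within each label; that block also took Ebp and Sc5d below the threshold in ATF7+/+ against wild-type (adjusted p = 0.0629 and 0.0539 within each label, limma) and changed no other count by over 1.5 times. In array set A alone 2 enzymes passed for diet in ATF7+/+ (0.436% of all genes called). There 3 passed for ATF7+/- against ATF7+/+ with control-diet sires (9.32% called). The cause of these changes was not tested.

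Single enzymes were not followed across settings for low-protein sires, where the medians turned from below to above 0 in array set A (0.13 and 0.28 against wild-type). For the interaction of ATF7+/- with ATF7+/+ every enzyme stayed below 0 over 47 settings. Cyp51 ran there from -1.22 to -0.11 and Dhcr7 from -0.83 to -0.32. In the other comparisons signs turned only among differences that did not pass in the fit of all groups. For diet in ATF7+/+ these were Ebp (-0.015 with quantile normalization, -0.0085 with the replicate block over all groups, -0.0095 with the Y-linked covariate, -0.0090 with the array-set block, -0.013 with both, -0.063 in set A alone, and -0.024 to 0.04 with 1 sample left out), and Cyp51 and Msmo1 with array weights (-0.22 and -0.21). In array set B alone Cyp51 (-0.36), Msmo1 (-0.37), Hsd17b7 (-0.0925), Sc5d (-0.052) and Dhcr7 (-0.086) were below 0, and with 1 sample left out Tm7sf2 ran from -0.0042 to 0.24 and Msmo1 from -0.072 to 0.15. In set A alone Nsdhl (0.15), Hsd17b7 (0.17) and Sc5d (0.047) were above 0 for diet in ATF7+/-, and Hsd17b7 was at -0.01 for the interaction of wild-type with ATF7+/+.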
